A study of Mus musculus with 12 samples.

Results

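The genes described here encode the nuclear parts of the last 3 complexes of oxidative phosphorylation. They were taken by symbol: every protein-coding identifier of both count tables whose GENCODE M21 symbol begins with Uqcr, Cox4 to Cox8, Cox10 to Cox19 or Atp5, together with Cyc1 and Cycs. This gave 54 identifiers of 55487, under 53 symbols. They comprise 9 subunits of complex III, cytochrome c itself (Cycs), 18 complex IV genes (subunits, their tissue isoforms and the subunit-like Cox7a2l), 8 assembly factors of complex IV (Cox10 to Cox19) and 18 identifiers of complex V, the ATP synthase. Atp5o has 2 identifiers, and the second, ENSMUSG00000116933, held 0 counts in every sample.

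RNA was sequenced from mouse CD8+ T cells of the OT-1 line, in which CD8 T cells carry a transgenic T cell receptor for an ovalbumin peptide. Female and Male were cells from the spleens of each sex, stimulated for 3 days with beads against CD3 and CD28 in the presence of mouse recombinant IL2. WT and KD came from another batch of male cells, which were electroporated and then cultured for 3 days, KD with Cas9 and a guide RNA against Kdm5d, WT with guide RNA and no Cas9; whether these cells met the beads was not stated. Each group had 3 samples. Every WT and KD sample was thus male, electroporated and given guide RNA, and no group received Cas9 without the Kdm5d guide, so that the presence of Cas9 and the loss of Kdm5d transcript cannot be told apart in KD. Age, strain background and the number of mice behind the samples were not given in the sources used here, so the p-values measure the spread between these samples, which may be technical.

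Complex III passes electrons from ubiquinol to cytochrome c, complex IV (cytochrome c oxidase, COX) passes them from cytochrome c to oxygen, and both pump protons across the inner mitochondrial membrane. Complex V uses the resulting gradient to make ATP. Complexes III, IV and V each combine a few subunits encoded in the mitochondrial genome with many encoded in the nucleus, so their assembly draws on both genomes, and activated T cells are known to add mitochondrial mass as they start to divide.

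Library totals ranged from 78748647 to 110803318 counts. Kdm5d, a histone demethylase gene on chromosome Y, checked the labels: the Female samples had 0, 0.021 and 0 CPM (counts per 1000000 counts, TMM-scaled) and the Male samples 50.9, 49.5 and 52.2, while WT samples had 48.4, 51.9 and 52.4 and KD samples 21.4, 21.8 and 22.9 (KD against WT log2 fold change -1.21, SE 0.045, adjusted p = 3.13e-08; exact two-sided permutation p = 0.1, the smallest that 3 against 3 samples allow). Summed CPM of 8 T cell markers was between 2795 and 2827 in Female and between 3105 and 3199 in Male. Taken singly, 2 of the 8 were called higher in Male and 3 lower by the test used below. Their median log2 fold change was -0.018. In the other table the sum was between 3990 and 4077 in WT and between 3570 and 3800 in KD. Of 29 markers of other blood cells, 11 had 0 counts in every Female and Male sample, the 4 globin genes among them, and 9 in every WT and KD sample. Eomes, which CD8 T cells also express, had 36.2 to 39.5 CPM in Female and 115.7 to 122.9 in Male. The others summed to between 12.0 and 14.9 CPM in Female and Male, to between 18.1 and 19.6 in WT and to between 12.9 and 14.6 in KD. Of these others, 1 was called higher in Male and 2 lower. Log2 fold changes of the 3 CD4 T cell markers in Male against Female ran from -7.07 to 0.63. Cd4 did not exceed 0.201 CPM in any sample. The part of these marker differences in the results below was not tested.

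The first comparison, Male against Female, asks how activated CD8 T cells of each sex differ. Transcripts of complexes III, IV and V were mostly higher in Male. After the low-count filter 50 of the 54 identifiers could be tested (Cox4i2, Cox7b2, Cox8c and the second Atp5o identifier could not), and 39 were higher in Male, 5 were lower and 6 did not pass an adjusted p of 0.05 in edgeR's quasi-likelihood test with Benjamini-Hochberg adjustment over all genes. Among all 20208 genes tested, 49.8% were called, 23.5% higher and 26.3% lower, and of the 13130 protein-coding ones 64.0% were called, 27.4% higher and 36.7% lower. Their log2 fold changes had a median of 0.34 (range -1.02 to 1.11), against 0.011 for all genes tested. In 45 of the 50 the Male and Female samples did not overlap, against 58.3% of all genes. The changes were moderate: 15 of the 39 had a log2 fold change of at least 0.5. In bulk samples such as these, fewer cells of a kind and less RNA per cell cannot be told apart.

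**Figure D1:**
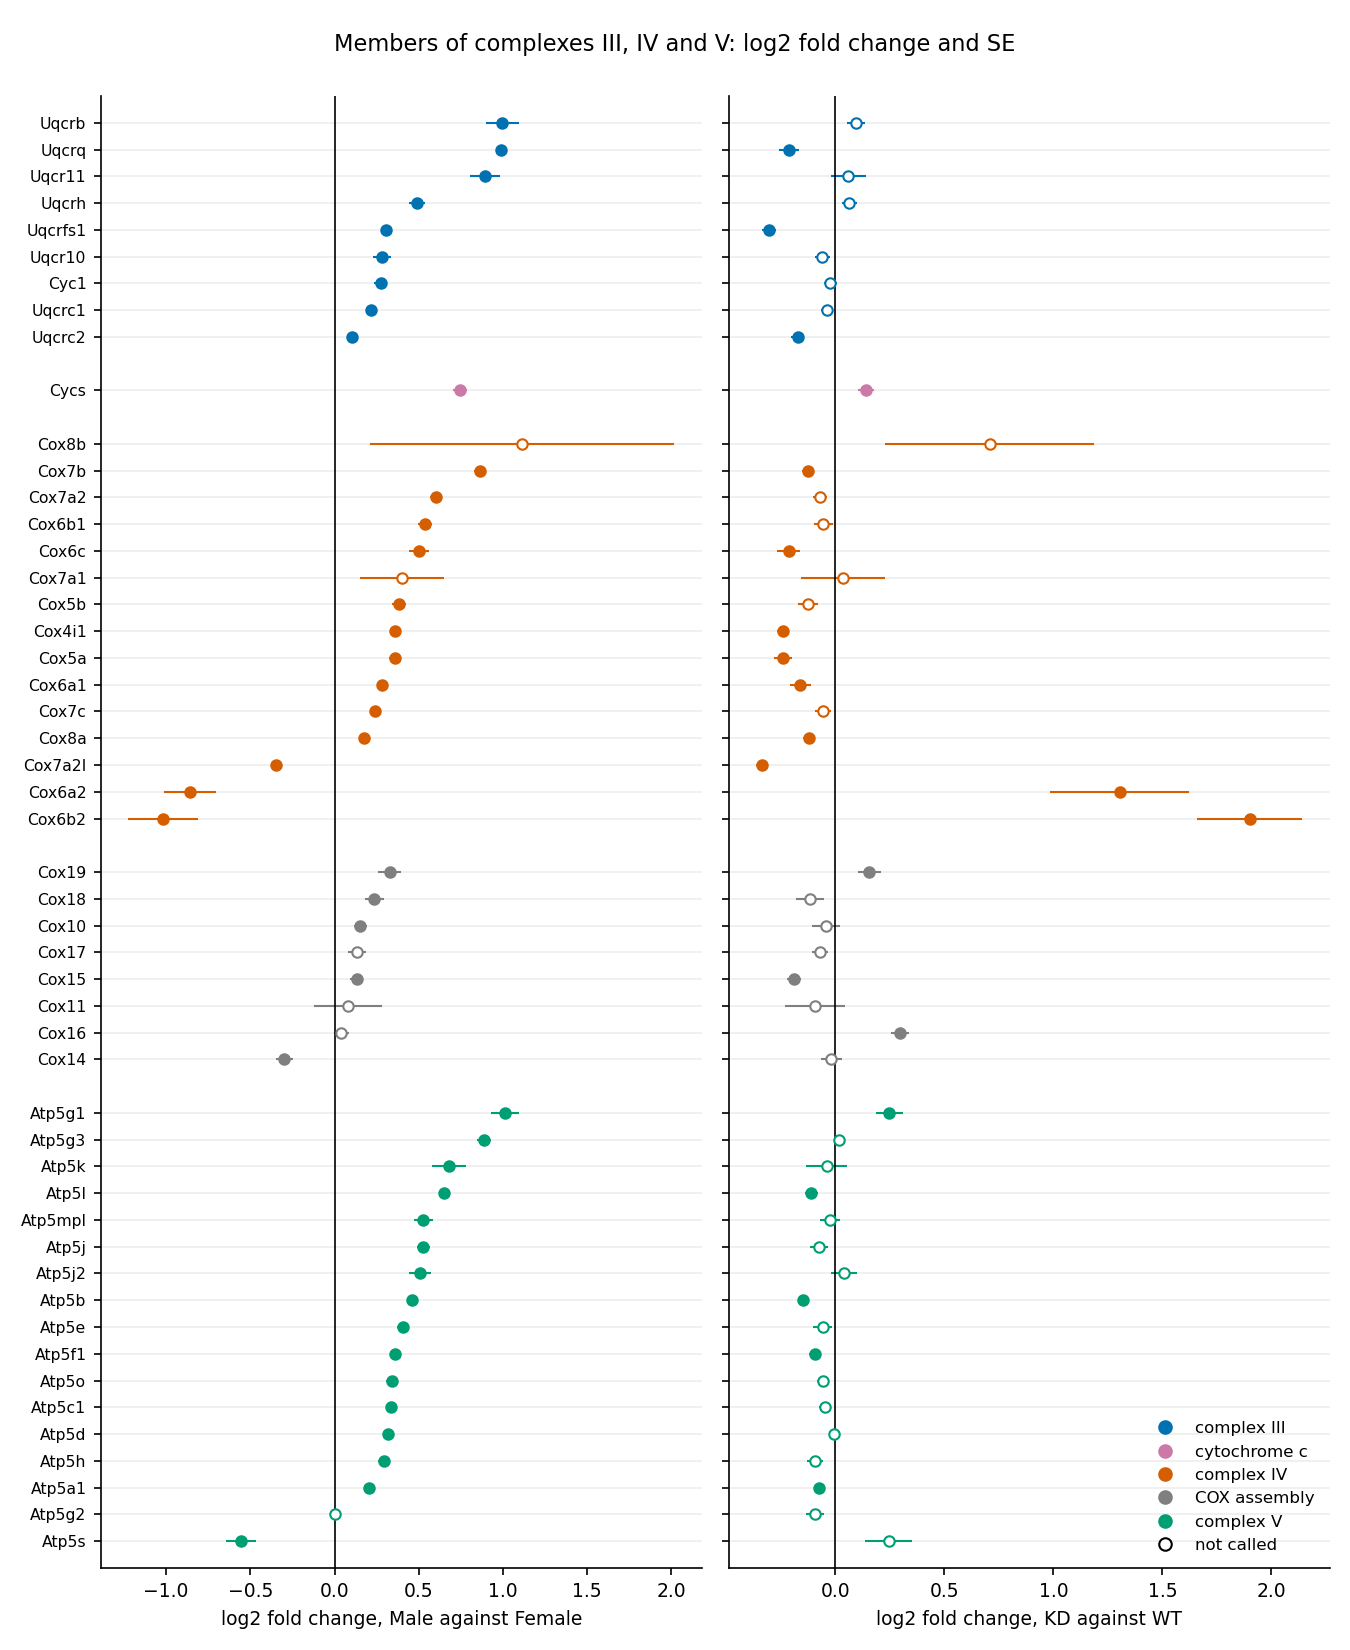
Log2 fold change (horizontal axis) of each of the 50 tested members in Male against Female (left) and KD against WT (right), ordered within each class by the left panel. Bars are standard errors, filled points passed an adjusted p of 0.05 and open points did not; most left-hand points lie above 0, while the right-hand points of complexes III and V lie close to 0 and Cox6a2 and Cox6b2 stand far to the right.

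All 9 nuclear subunits of complex III were higher in Male, with a median log2 fold change of 0.31. The steepest were small accessory subunits that carry no redox group. Uqcrq (ENSMUSG00000044894, chromosome 11, 53427922 to 53430831, GRCm38) had 32.6, 33.2 and 32.4 CPM in Female and 65.9, 64.7 and 64.1 in Male. No Male sample came near a Female one, and the fitted difference was 1.99-fold (log2 fold change 0.99, SE 0.030, adjusted p = 1.8e-09). Uqcrh, the hinge protein that helps cytochrome c1 to meet cytochrome c, rose from 17.7, 17.4 and 18.3 CPM to 24.3, 24.6 and 26.1 (log2 fold change 0.49, SE 0.046, adjusted p = 7.24e-06). Uqcrb and Uqcr11, also small subunits, had log2 fold changes of 1.00 (SE 0.099) and 0.90 (SE 0.088), and Uqcr10 one of 0.28 (SE 0.054).

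The catalytic and core subunits of complex III had log2 fold changes from 0.10 to 0.31, a range that also holds Uqcr10. Uqcrfs1, the Rieske iron-sulfur protein, had 71.7, 72.5 and 69.2 CPM in Female and 87.6, 89.0 and 87.2 in Male (log2 fold change 0.31, SE 0.026, adjusted p = 3.75e-06). Cyc1, which carries the heme of cytochrome c1, had a log2 fold change of 0.27 (SE 0.037). The core proteins Uqcrc1 and Uqcrc2 had 0.22 (SE 0.022) and 0.10 (SE 0.025). Uqcrc2 was the subunit nearest to no change, and with trends in transcript length and GC content removed it no longer passed (log2 fold change 0.041). Cycs, the mobile carrier between complexes III and IV, rose from 38.1, 34.5 and 35.6 CPM to 61.6, 58.8 and 61.2 (log2 fold change 0.75, SE 0.041, adjusted p = 1.41e-07). Its transcript shares 29.2% of its 31-base subsequences with other genes, mostly Gm10053, so reads of the copies may have been mixed in its counts; Gm10053 itself had a log2 fold change of 0.60. Uqcrb and Uqcr11 share 32.4% and 12.1% with other genes, Uqcrq and Uqcrfs1 none.

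Of the 15 complex IV genes that were tested, 10 were higher in Male, 3 were lower and 2 did not pass. Their median log2 fold change was 0.36. Cox7b lies on the X chromosome (106015700 to 106022450), the only member that does, and had the largest rise among the called subunits of complex IV. It had 31.3, 32.1 and 30.7 CPM in Female and 59.0, 56.7 and 55.5 in Male (log2 fold change 0.86, SE 0.035, adjusted p = 1.67e-08). Cox7a2, the isoform of subunit VIIa used outside muscle, rose from 38.8, 37.9 and 40.3 CPM to 57.3, 58.7 and 61.7 (log2 fold change 0.60, SE 0.038, adjusted p = 3.82e-07). For both genes every Male sample was far above every Female sample. Cox6b1, which faces the intermembrane space near the cytochrome c site, rose from 49.0, 50.02 and 51.9 CPM to 77.1, 72.8 and 69.1 (log2 fold change 0.54, SE 0.041, adjusted p = 1.7e-06). Cox4i1, the common form of the largest nuclear subunit, rose from 106.9, 104.6 and 103.8 CPM to 136.6, 132.8 and 134.7 (log2 fold change 0.36, SE 0.024, adjusted p = 5.79e-07).

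The other ubiquitous subunits were higher as well. Cox6a1 had 59.8, 57.4 and 59.8 CPM in Female and 72.4, 70.7 and 71.9 in Male (log2 fold change 0.28, SE 0.027). Cox8a had 90.5, 90.9 and 92.0 in Female and 105.1, 101.5 and 102.1 in Male (log2 fold change 0.18, SE 0.024). Log2 fold changes were 0.50 (SE 0.060) for Cox6c, 0.38 (SE 0.043) for Cox5b, 0.36 (SE 0.036) for Cox5a and 0.24 (SE 0.030) for Cox7c. Of the 10 complex IV genes that rose, Cox7c is the one whose call was lost when length and GC trends were removed (log2 fold change 0.040).

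The 3 complex IV genes that were lower in Male were an assembly factor of supercomplexes and a pair of tissue isoforms. Cox7a2l (chromosome 17, 83501918 to 83517330), related in sequence to subunit VIIa and known for tying complex III to complex IV in supercomplexes, had 155.9, 150.7 and 152.0 CPM in Female and 121.5, 120.8 and 117.7 in Male (log2 fold change -0.35, SE 0.024, adjusted p = 8.27e-07). It moved against Cox7a2, and the Male and Female samples did not overlap for either gene. Cox6a2, the heart and skeletal muscle isoform of subunit VIa, had 3.53, 4.21 and 4.62 CPM in Female and 1.90, 2.50 and 2.42 in Male (log2 fold change -0.86, SE 0.15, adjusted p = 0.00091). Cox6b2, the testis isoform of subunit VIb, had 1.57, 1.23 and 1.16 CPM in Female and 0.695, 0.670 and 0.588 in Male (log2 fold change -1.02, SE 0.21, adjusted p = 0.0020). Both isoforms were scarce beside their common counterparts, and both were lower in every Male sample than in any Female sample. Cox6a2 lies inside the span of Itgad on the other strand, which had means of 0.188 CPM in Female and 0.268 in Male.

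Other tissue isoforms of complex IV were scarce, and none was called. Cox7a1, the muscle isoform of subunit VIIa, had 0.696, 0.479 and 0.854 CPM in Female and 0.834, 0.875 and 0.972 in Male, with overlapping groups (log2 fold change 0.40, SE 0.25, adjusted p = 0.221). It had 45 to 83 counts in Female and 78 to 86 in Male, against 113 to 133 and 52 to 65 for Cox6b2. The remaining isoforms were close to the limit of detection or absent. Cox8b, a muscle isoform of subunit VIII, had 3, 15 and 0 counts in Female and 9, 14 and 16 in Male, and its log2 fold change of 1.11 (SE 0.90, adjusted p = 0.344) was not distinguishable from 0; without Female replicate 2 it was 2.98 with an adjusted p of 0.0497. Cox4i2, the isoform of subunit IV known from lung, had 9, 0 and 12 counts in Female and 0, 0 and 6 in Male. The testis isoforms Cox7b2 and Cox8c had 0 counts in every sample of both tables.

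The assembly factors Cox10 to Cox19 had a median log2 fold change of 0.13. Of the 8, 4 were higher in Male, 1 was lower and 3 did not pass. The share called, 62.5%, was near the 64.0% of protein-coding genes tested. Cox19, a copper-handling protein of the intermembrane space, had 8.99, 8.72 and 9.24 CPM in Female and 12.0, 11.1 and 10.8 in Male (log2 fold change 0.33, SE 0.069, adjusted p = 0.0027). Cox18, which inserts a part of mitochondrially encoded subunit II into the membrane, had 17.0, 16.3 and 15.2 in Female and 19.6, 18.9 and 18.6 in Male (log2 fold change 0.24, SE 0.055, adjusted p = 0.0046). The enzymes that make heme A from heme B moved little. Cox10, heme O synthase, had 33.9, 33.6 and 35.3 CPM in Female and 38.4, 38.9 and 37.0 in Male (log2 fold change 0.15, SE 0.037, adjusted p = 0.0057), a call lost with all 12 samples in 1 fit (0.13). Cox15, heme A synthase, had 51.0, 55.8 and 53.1 in Female and 56.3, 59.9 and 59.1 in Male (log2 fold change 0.13, SE 0.039, adjusted p = 0.0175), and the call was lost without any one of Female replicates 1 and 3 and Male replicates 2 and 3 (lowest log2 fold change 0.093) and with no low-count filter (0.12). Cox14, an early partner of subunit I, went the other way, from 25.5, 25.6 and 23.4 CPM to 19.3, 20.4 and 20.9 (log2 fold change -0.30, SE 0.051, adjusted p = 0.00065). The copper chaperone Cox17 missed the threshold (log2 fold change 0.13, SE 0.051, adjusted p = 0.0528) and passed it in 9 of 13 alternative fits that kept all samples. Cox11 and Cox16 had log2 fold changes of 0.080 (SE 0.20) and 0.040 (SE 0.045), neither past the threshold.

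Of 17 tested complex V genes, 15 were higher in Male, 1 was lower and 1 did not pass, with a median log2 fold change of 0.40. The catalytic beta subunit Atp5b (chromosome 10, 128083273 to 128090391) was the member with the most counts and had 904.3, 894.1 and 898.1 CPM in Female and 1242, 1246 and 1225 in Male (log2 fold change 0.46, SE 0.014, adjusted p = 1.59e-09). Its partner Atp5a1, the alpha subunit, had a log2 fold change of 0.20 (SE 0.015). The remaining subunits of the F1 head and central stalk, Atp5c1 (gamma), Atp5d (delta) and Atp5e (epsilon), had 0.33 (SE 0.026), 0.32 (SE 0.025) and 0.40 (SE 0.034). The head therefore rose throughout, and its 5 genes spanned log2 fold changes from 0.20 to 0.46.

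In the stator, which holds the head against the rotor, Atp5f1 (subunit b) had 183.7, 181.4 and 184.7 CPM in Female and 233.5, 233.8 and 236.7 in Male (log2 fold change 0.36, SE 0.020, adjusted p = 1.61e-07). Atp5h (subunit d), Atp5j (coupling factor 6) and Atp5o (the oligomycin sensitivity protein) had 0.29 (SE 0.033), 0.53 (SE 0.038) and 0.34 (SE 0.037). The small membrane subunits, several of which join 2 ATP synthases into dimers, were also higher. Atp5l (subunit g) went from 42.9, 43.4 and 41.7 CPM to 67.3, 67.2 and 66.1 (log2 fold change 0.65, SE 0.029, adjusted p = 2.81e-08). Atp5k (subunit e), Atp5mpl and Atp5j2 (subunit f) had 0.68 (SE 0.10), 0.53 (SE 0.057) and 0.51 (SE 0.067). Atp5s, known as factor B and named after the synthase but not one of its subunits, was the gene that fell, from 6.96, 6.97 and 7.16 CPM to 4.68, 4.68 and 4.99 (log2 fold change -0.56, SE 0.087, adjusted p = 0.00035).

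Subunit c, which forms the rotating ring, is made from 3 nuclear genes whose mature proteins are identical, and these genes did not move together. Atp5g1 (chromosome 11, 96068852 to 96075670) had 18.6, 20.01 and 15.5 CPM in Female and 35.8, 38.5 and 34.9 in Male (log2 fold change 1.01, SE 0.083, adjusted p = 2.65e-06). Atp5g3 (chromosome 2, 73908447 to 73911326) had 61.8, 58.5 and 55.04 in Female and 109.4, 110.8 and 104.6 in Male (log2 fold change 0.89, SE 0.041, adjusted p = 4.04e-08). Atp5g2 (chromosome 15, 102662864 to 102672352) had 123.8, 120.9 and 126.2 in Female and 124.1, 126.2 and 120.9 in Male, with overlapping groups (log2 fold change 0.00099, SE 0.027, adjusted p = 0.980). Atp5g2 was not separable from 0 in the main fit, changed sign under several settings and was called with length and GC trends removed (log2 fold change 0.094). It shares 40.2% of its 31-base subsequences with other genes, chiefly the transcribed pseudogene Gm10175 (means of 35.7 CPM in Female and 34.5 in Male), so its counts may be split with that copy. Atp5g1 shares 13.9%, most with the pseudogene Gm10039, so the same limit holds for it. Gm10039 had means of 7.15 CPM in Female and 10.7 in Male (log2 fold change 0.58).

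Per length of exon, the 3 genes gave different shares of all subunit c transcript in the 2 sexes. Levels per length were computed as TPM from the deposited counts, using the union of a gene's exons. Atp5g2 made up 69.7%, 70.0% and 72.6% in the Female samples and 56.3%, 56.2% and 56.7% in Male. Atp5g3 made up 26.7%, 26.0% and 24.3% in Female and 38.1%, 37.9% and 37.7% in Male, and Atp5g1 3.52% ± 0.46 (SD, n = 3) and 5.66% ± 0.17 (SD, n = 3). The samples of the 2 sexes did not overlap for any of the 3 shares. With the longest transcript in place of the exon union, the shares of Atp5g1 were 1.62% and 2.59% and those of Atp5g3 28.7% and 42.2%, so the level of a share depends on the length used while the direction between the sexes was kept.

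**Figure D2:**
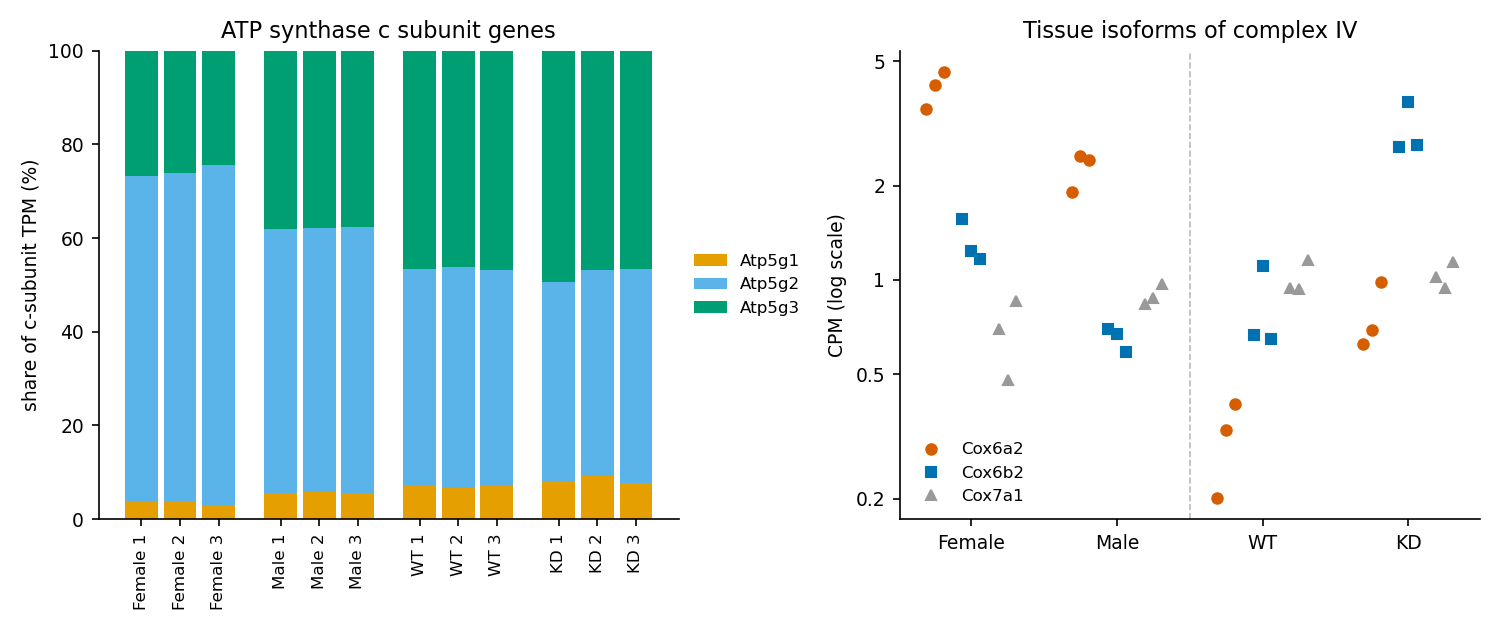
Left, share of each of 3 subunit c genes in their summed TPM (vertical axis, percent) in each of the 12 samples; Atp5g2 takes 69.7% to 72.6% in Female and 56.2% to 56.7% in Male. Right, CPM (log scale) of the complex IV isoforms Cox6a2, Cox6b2 and Cox7a1 with 1 point per sample; the dashed line separates the 2 tables, which were scaled separately.

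Sequences just before the transcription start were examined because most members rose together. The RefSeq promoter table (GRCm38.p6, 250 bases before to 50 after a start) had entries for 38 of the 53 member symbols, in 42 windows, and none for Atp5a1, Atp5f1, Atp5mpl, Atp5s, Cox17, Cox18, Cox4i1, Cox4i2, Cox6a2, Cox6c, Cox8c, Cyc1, Uqcrb, Uqcrc2 and Uqcrq. The windows were searched on both strands for 3 short patterns of factors known from respiratory genes: NRF1 (GCGCA, any base, then GCGC), the ETS core bound by GABP (CCGGAAG) and YY1 (AAGATGG). The NRF1 pattern was found in 8 of 38 members (21.1%), the ETS core in 14 (36.8%) and the YY1 pattern in 4 (10.5%). Among all 27025 genes of the table, 5.19%, 9.93% and 7.28% held them, and among the 16522 with a protein-coding symbol 7.45%, 13.4% and 7.26%. No match of one pattern overlapped a match of another. The NRF1 pattern was in 6 of 13 complex V genes with an entry, 1 of 13 of complex IV, 1 of 5 of complex III and 0 of 6 of the assembly factors. A match is a description of letters and not a site of binding.

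The 120 bases before the start are shown for 4 members that were higher in Male and hold a match there, and for 3 that hold none, so that the matched and unmatched forms can be read side by side. Each runs 5′ to 3′ on the gene's strand, with matched letters in capitals, and the coordinates are GRCm38.p6. GENCODE exons of the same gene reach at most 23 bases into any of them. Uqcr11 (chr10:80406822-80406941, minus strand) holds the ETS core at position -66, Uqcrh (chr4:116075071-116075190, minus) at -10 and Atp5e (chr2:174464102-174464221, minus) at -102, where a position is that of the first base of the match and -1 is the base before the start. Cox6a1 (chr5:115348959-115349078, minus) holds the NRF1 pattern at -117 and the ETS core at -16. In Uqcrh, Atp5e and Cox6a1 the ETS core lies on the opposite strand and so reads CTTCCGG. Cox7b (chrX:106015580-106015699, plus), Atp5g3 (chr2:73911327-73911446, minus) and the testis isoform Cox6b2 (chr7:4753095-4753214, minus), which was lower in Male, hold none of the 3 patterns in these bases, although Atp5g3 holds the NRF1 pattern elsewhere in its window, outside the bases before the start.
Uqcr11: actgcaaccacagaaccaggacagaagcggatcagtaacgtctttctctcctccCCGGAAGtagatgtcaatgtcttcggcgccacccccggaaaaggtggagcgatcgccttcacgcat
Uqcrh: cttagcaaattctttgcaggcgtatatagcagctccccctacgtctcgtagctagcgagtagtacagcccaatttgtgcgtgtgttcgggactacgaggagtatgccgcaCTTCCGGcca
Atp5e: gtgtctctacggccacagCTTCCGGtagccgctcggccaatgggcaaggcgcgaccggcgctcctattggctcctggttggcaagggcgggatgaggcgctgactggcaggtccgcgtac
Cox6a1: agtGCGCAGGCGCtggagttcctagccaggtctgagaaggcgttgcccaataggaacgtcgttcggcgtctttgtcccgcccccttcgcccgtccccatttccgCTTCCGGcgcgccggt
Cox7b: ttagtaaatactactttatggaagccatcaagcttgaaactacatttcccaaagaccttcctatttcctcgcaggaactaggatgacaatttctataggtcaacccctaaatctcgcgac
Atp5g3: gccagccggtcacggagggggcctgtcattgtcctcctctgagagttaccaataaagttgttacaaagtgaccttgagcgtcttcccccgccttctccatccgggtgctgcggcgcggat
Cox6b2: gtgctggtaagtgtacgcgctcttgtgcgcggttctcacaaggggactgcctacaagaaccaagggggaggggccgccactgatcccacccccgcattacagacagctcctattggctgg

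Of the 29 members with an entry that were higher in Male, 18 held at least 1 of the patterns, as did 3 of the other 9 members with an entry, 20.03% of all genes of the table and 24.7% of those with a protein-coding symbol. Steep risers, taken here as called members that rose by 0.5 or more on the log2 scale, were found on both sides. Cox7b, Cox7a2, Atp5g1 and Cycs held none in the whole window. For Atp5g1 and Cycs the bases just after the start in the promoter table were not found in the gene's GENCODE transcripts. Uqcr11, Cox6b1, Atp5g3, Atp5k, Atp5l, Atp5j and Atp5j2 held at least 1, and the remaining steep risers had no entry. Atp5j held its matches in 1 of its 2 windows, and the other held none. In that window and in the window of Atp5j2, the 120 bases before the start lie wholly within an annotated GENCODE exon. Atp5g2, which did not change, held the NRF1 pattern at -42. Whether the patterns bear on the rise was not tested.

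Genes that build or regulate these complexes did not rise as a block. Of the 6 listed assembly factors of complex III, 4 were lower in Male, 1 was higher and 1 did not pass (median log2 fold change -0.21). Lyrm7, Bcs1l and Uqcc3, which act when the Rieske protein or cytochrome b is added, had log2 fold changes of -0.38 (SE 0.11), -0.29 (SE 0.059) and -0.29 (SE 0.082), and Uqcc2, needed for cytochrome b, had 0.34 (SE 0.053). Of 18 tested complex IV assembly genes outside the members, 5 were higher and 7 lower (median 0.045). Sco1, a copper chaperone of subunit II, rose from 41.5, 39.8 and 40.3 CPM to 62.8, 64.2 and 61.1 (log2 fold change 0.63, SE 0.032), and Higd1a and Lrpprc, the second a stabiliser of mitochondrial messenger RNA, had 0.62 (SE 0.040) and 0.50 (SE 0.029). Cox20 and Surf1, assembly factors that act on subunits II and I, and Coa5 had -0.65 (SE 0.13), -0.23 (SE 0.053) and -0.14 (SE 0.031). Ndufa4, an associated subunit of complex IV held in this list and singled out after its values were seen, had 18.0, 14.3 and 17.0 CPM in Female and 31.4, 29.7 and 30.9 in Male (log2 fold change 0.90, SE 0.075, adjusted p = 3.2e-06). Of 6 complex V assembly and regulation genes, Atpif1, the inhibitor of ATP hydrolysis, was higher (0.14, SE 0.051) and Atpaf2 lower (-0.19, SE 0.052). The share called was 83.3% of the complex III list, 66.7% of the complex IV list and 33.3% of the complex V list. These stand beside 49.8% of all genes tested and 64.0% of the protein-coding ones.

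Of 6 mitochondrially encoded partners of these subunits, 4 were higher in Male and 2 did not pass, with a median log2 fold change of 0.16, and the called ones were mt-Co2 (0.20, SE 0.026), mt-Cytb (0.19, SE 0.024), mt-Atp6 (0.15, SE 0.021) and mt-Co3 (0.095, SE 0.030). All 4 subunits of complex II, which has no mitochondrially encoded part, were higher (median 0.29). Among 13 tested regulators of respiratory gene expression, 3 were higher and 6 lower. The share called was 66.7% of the mitochondrially encoded genes and 69.2% of the regulators, near the 64.0% of protein-coding genes tested. Over all genes tested 49.8% were called, 23.5% higher. Pprc1 and Esrra, a coactivator and a nuclear receptor that promote respiratory genes, had 0.34 (SE 0.025) and 0.25 (SE 0.032), while Gabpb2 and Gabpb1, subunits of GABP, and Tfb1m, a mitochondrial rRNA methyltransferase, had -0.38 (SE 0.020), -0.26 (SE 0.026) and -0.57 (SE 0.056). Gabpa, which shares a stretch of 701 bases with Atp5j on the other strand, had -0.17 (SE 0.024) while Atp5j had 0.53.

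**Figure D3:**
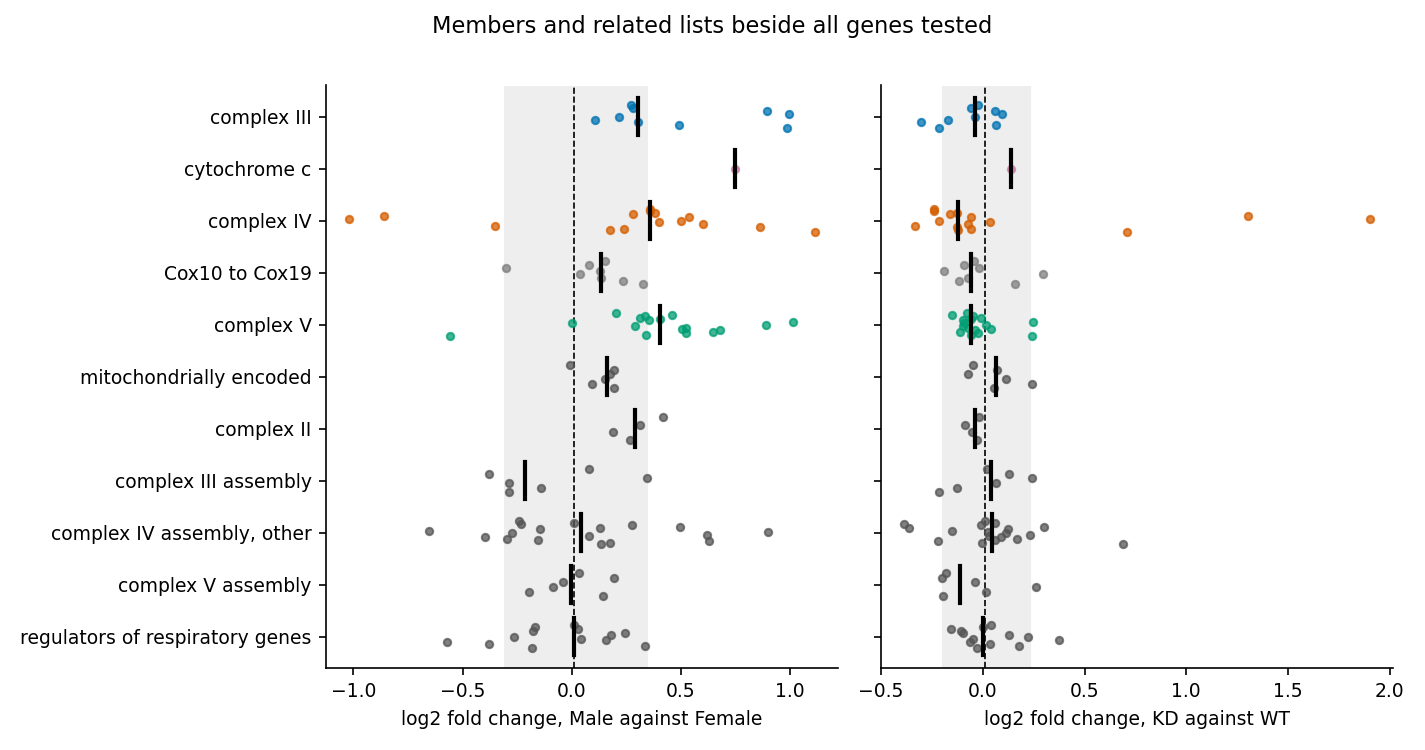
Log2 fold change (horizontal axis) of the members by class and of related gene lists, 1 point per gene, in Male against Female (left) and KD against WT (right). Thick bars are list medians, the dashed line is the median of all genes tested and the grey band their middle 50%; the medians of complexes III, IV and V are 0.31, 0.36 and 0.40 on the left and lie within 0.13 of 0 on the right.

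The second comparison, KD against WT, asks what follows when male cells are given Cas9 with the Kdm5d guide. The differences were small, and of the 50 tested members 15 were lower in KD, 6 were higher and 29 did not pass. Among all 20413 genes tested 35.1% were called, 18.4% lower and 16.8% higher, and among the 13239 protein-coding ones 48.0% were called, 25.7% lower and 22.3% higher, so the share of members called was near that of all genes. Their median log2 fold change was -0.058, against 0.012 over all genes, and 28 of 50 had groups that did not overlap, against 46.8% of all genes. Of the 21 called, 16 had a log2 fold change within 0.25 of 0. By class, the share called was 33.3% in complex III, 60.0% in complex IV, 37.5% in the assembly factors and 29.4% in complex V. Under upper-quartile scaling, which moved the median of all genes by 0.030, the members split into 8 higher and 12 lower, and calls over all genes went from 47.8% to 54.96% higher.

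In complex III, 3 of 9 subunits were lower in KD and the other 6 did not pass. Uqcrfs1 (chromosome 13, 30540308 to 30545362) had 100.6, 102.2 and 102.9 CPM in WT and 81.4, 80.1 and 85.7 in KD (log2 fold change -0.31, SE 0.031, adjusted p = 3.41e-05). Uqcrc2 had 156.6, 161.7 and 160.8 in WT and 144.8, 136.0 and 144.4 in KD (log2 fold change -0.17, SE 0.029, adjusted p = 0.0011). Uqcrq had 61.6, 58.2 and 64.7 in WT and 51.4, 55.5 and 52.0 in KD (log2 fold change -0.22, SE 0.046, adjusted p = 0.0044). For these 3 genes every KD sample was below every WT sample. Uqcrc1, Cyc1 and Uqcr10 had log2 fold changes of -0.039 (SE 0.027), -0.023 (SE 0.029) and -0.059 (SE 0.036), and Uqcrb, Uqcrh and Uqcr11 had 0.094 (SE 0.043), 0.064 (SE 0.033) and 0.059 (SE 0.080). Cycs went up, from 67.7, 69.5 and 72.1 CPM to 80.1, 74.9 and 75.7 (log2 fold change 0.14, SE 0.037, adjusted p = 0.0133), and this call was lost without WT replicate 1 or KD replicate 1 (log2 fold changes 0.12 and 0.11).

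Complex IV held the most changes, with 7 of 15 tested genes lower in KD and 2 higher (median log2 fold change -0.12). Cox7a2l had the smallest p among the members that fell. It had 107.9, 110.9 and 106.5 CPM in WT and 86.0, 86.5 and 85.3 in KD (log2 fold change -0.34, SE 0.027, adjusted p = 5.36e-06), and it was the single member called lower in both comparisons. Cox4i1 had 143.1, 147.9 and 145.2 in WT and 125.9, 123.1 and 119.9 in KD (log2 fold change -0.24, SE 0.027, adjusted p = 5.65e-05). Cox5a, which binds the matrix side of the complex, had 127.5, 133.7 and 132.9 in WT and 114.3, 103.3 and 115.9 in KD (log2 fold change -0.24, SE 0.042, adjusted p = 0.0013). In all 3 the KD samples lay below the WT samples. Cox7b had 75.7, 73.8 and 75.5 in WT and 68.8, 68.8 and 68.4 in KD (log2 fold change -0.13, SE 0.027, adjusted p = 0.0047). Cox8a had 129.9, 132.3 and 133.8 in WT and 121.2, 124.6 and 118.3 in KD (log2 fold change -0.12, SE 0.027, adjusted p = 0.0059), and Cox6c had a log2 fold change of -0.21 (SE 0.052).

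Some ubiquitous subunits of complex IV were not separated in KD. Cox6a1 had 83.8, 76.6 and 87.0 CPM in WT and 73.1, 76.7 and 71.5 in KD; it passed the threshold (log2 fold change -0.16, SE 0.047, adjusted p = 0.0232) although the groups overlapped. Its call was lost under upper-quartile scaling and without any one of WT replicates 1 and 3 and KD replicates 1 and 3 (log2 fold changes from -0.16 to -0.12). Cox6b1 had 91.5, 86.1 and 95.2 in WT and 91.5, 84.7 and 86.3 in KD (log2 fold change -0.056, SE 0.042, adjusted p = 0.363). Cox7a2 had 82.2, 79.3 and 83.5 in WT and 77.1, 79.7 and 76.2 in KD (log2 fold change -0.073, SE 0.032, adjusted p = 0.108). Both had overlapping groups. Cox5b and Cox7c had -0.13 (SE 0.046) and -0.057 (SE 0.037), neither past the threshold.

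The same pair of tissue isoforms that was lower in Male was higher in KD. Cox6b2 (chromosome 7, 4751792 to 4753094) had 0.667, 1.11 and 0.649 CPM in WT, from 73, 107 and 63 counts, and 2.65, 3.70 and 2.69 in KD, from 212, 402 and 260 counts (log2 fold change 1.90, SE 0.24, adjusted p = 0.00015). Cox6a2 had 0.201, 0.332 and 0.402 CPM in WT and 0.625, 0.691 and 0.984 in KD (log2 fold change 1.30, SE 0.32, adjusted p = 0.0093). These values rest on few counts, 22, 32 and 39 in WT and 50, 75 and 95 in KD. The groups did not overlap for either gene. Their shares remained small: Cox6b2 was 0.572% ± 0.21 (SD, n = 3) of Cox6b TPM in WT and 2.16% ± 0.49 in KD, and Cox6a2 was 0.389% ± 0.12 of Cox6a TPM in WT and 1.07% ± 0.29 in KD. In the other table Cox6b2 made up 1.66% ± 0.31 in Female and 0.566% ± 0.023 in Male, and Cox6a2 6.72% ± 0.87 and 3.17% ± 0.46. With the length of the longest transcript the Cox6b2 share was 0.941% in WT and 3.53% in KD. Cox7a1 had 0.941, 0.934 and 1.15 CPM in WT and 1.03, 0.939 and 1.14 in KD (log2 fold change 0.035, SE 0.19), Cox8b had 11, 7 and 12 counts in WT and 13, 14 and 19 in KD (log2 fold change 0.71, SE 0.48), and Cox4i2 had 0, 11 and 0 counts in WT and 0, 8 and 0 in KD.

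Of the 8 assembly factors Cox10 to Cox19, 2 were higher in KD, 1 was lower and 5 did not pass. Cox16, which helps subunits I and II to join, had 19.6, 20.7 and 20.3 CPM in WT and 25.2, 24.2 and 25.1 in KD (log2 fold change 0.30, SE 0.041, adjusted p = 0.00029). It shares 55.2% of its 31-base subsequences with the overlapping readthrough gene Gm20498 (means of 3.29 CPM in WT and 3.67 in KD). Cox15 had 56.1, 54.7 and 56.5 in WT and 49.0, 49.9 and 47.7 in KD (log2 fold change -0.19, SE 0.033, adjusted p = 0.0013). Cox19 had 16.6, 16.7 and 15.8 in WT and 17.4, 18.6 and 18.7 in KD (log2 fold change 0.16, SE 0.051, adjusted p = 0.0384); leaving out any one sample but KD replicate 1 ended that call, at log2 fold changes from 0.13 to 0.17, as did dropping the low-count filter (0.15). Cox10, Cox11, Cox14, Cox17 and Cox18 had log2 fold changes between -0.12 and -0.020 and did not pass.

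In complex V, 4 of 17 tested genes were lower in KD, 1 was higher and 12 did not pass, with a median log2 fold change of -0.057. The subunits of the catalytic head that carry most of the counts were among the lower ones. Atp5b had 1149, 1169 and 1165 CPM in WT and 1053, 1057 and 1028 in KD (log2 fold change -0.15, SE 0.016, adjusted p = 3.85e-05). Atp5a1 had 729.8, 727.3 and 738.0 in WT and 693.9, 695.9 and 693.3 in KD (log2 fold change -0.076, SE 0.015, adjusted p = 0.0023). These are reductions of 1.11-fold and 1.05-fold and exceed the spread between samples. Atp5l had 81.0, 78.8 and 81.3 in WT and 73.6, 74.5 and 75.3 in KD (log2 fold change -0.11, SE 0.028, adjusted p = 0.0115), and lost its call under upper-quartile scaling (-0.080) and without WT replicate 3 (-0.10). Atp5f1 had 286.0, 280.1 and 289.6 in WT and 260.6, 277.0 and 263.0 in KD (log2 fold change -0.096, SE 0.026, adjusted p = 0.0166), and lost it under upper-quartile scaling (-0.066) and without any one of WT replicates 1 and 3 and KD replicates 1 and 3 (from -0.096 to -0.079).

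Among the subunit c genes the gene that rose was Atp5g1, the least abundant. It had 57.0, 54.7 and 56.0 CPM in WT and 63.5, 74.1 and 61.6 in KD (log2 fold change 0.25, SE 0.061, adjusted p = 0.0098). The pseudogene Gm10039, which shares sequence with Atp5g1, had means of 15.3 CPM in WT and 17.9 in KD. Atp5g3 had 168.0, 166.4 and 164.1 in WT and 168.9, 168.8 and 166.0 in KD (log2 fold change 0.015, SE 0.022, adjusted p = 0.649). Atp5g2 had 127.9, 130.7 and 124.6 in WT and 111.9, 122.5 and 124.9 in KD (log2 fold change -0.093, SE 0.040, adjusted p = 0.107). The last 2 had overlapping groups. Their shares of subunit c TPM were 46.5% ± 0.35 (SD, n = 3) in WT and 47.6% ± 1.5 in KD for Atp5g3, 46.5% ± 0.54 and 44.1% ± 1.6 for Atp5g2 and 6.95% ± 0.19 and 8.34% ± 0.72 for Atp5g1. With the longest transcript the WT shares were 51.5%, 45.3% and 3.17%, so which of Atp5g3 and Atp5g2 led in WT depended on the length used. Atp5s had 0.24 (SE 0.11, adjusted p = 0.108), and the other 9 subunits had log2 fold changes between -0.095 and 0.040.

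**Figure D4:**
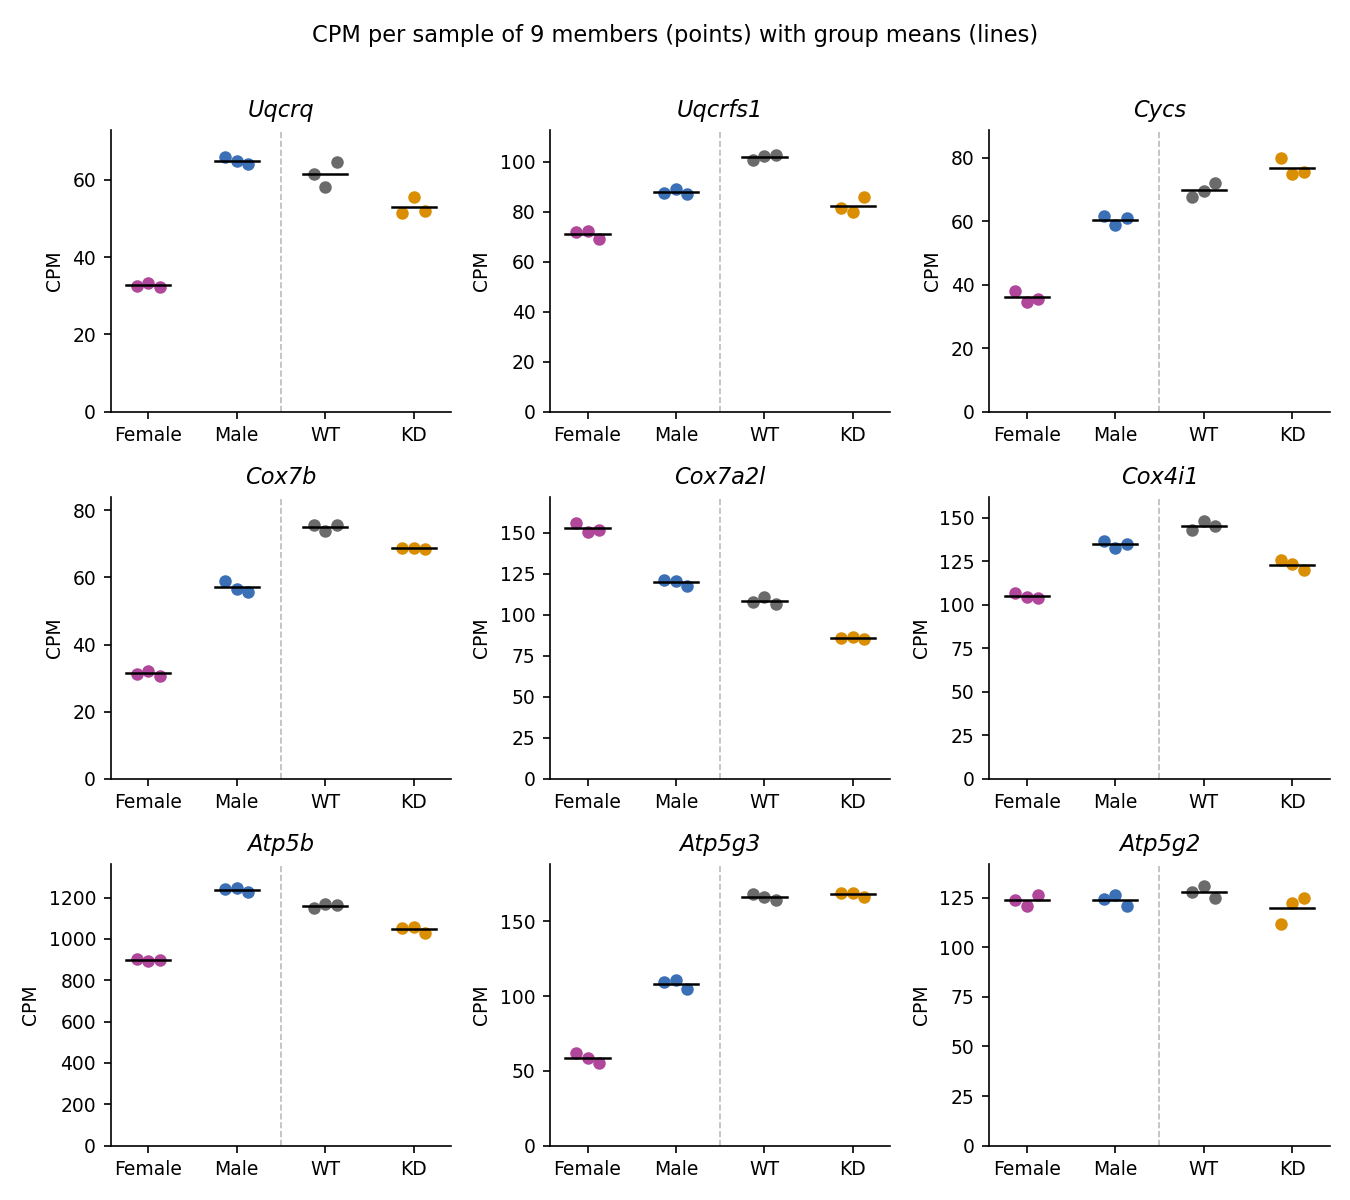
CPM (vertical axis, from 0) of 9 members in each of the 12 samples, with 1 point per sample and a line at each group mean; the dashed line separates the 2 tables, which were scaled separately. Uqcrq goes from 32.4 to 33.2 in Female to 64.1 to 65.9 in Male, Cox7a2l is lower in Male and lower in KD, and Atp5g2 overlaps between the groups in both tables.

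The genes that build or regulate the complexes moved in both directions in KD, against the 35.1% of all genes called. Of the 6 complex III assembly factors, Uqcc2 was higher (0.24, SE 0.059) and Uqcc3 lower (-0.22, SE 0.073). Of 18 tested complex IV assembly genes outside the members, 4 were higher and 3 lower. The copper chaperones went opposite ways, Sco2 from 4.72, 5.50 and 4.79 CPM to 7.90, 9.54 and 6.73 (log2 fold change 0.69, SE 0.13, adjusted p = 0.0019) and Sco1 with -0.22 (SE 0.058). Lrpprc had 119.2, 119.3 and 117.1 CPM in WT and 143.2, 146.0 and 148.4 in KD (log2 fold change 0.30, SE 0.024, adjusted p = 6.61e-06), and Surf1 and Higd2a had -0.39 (SE 0.047) and -0.36 (SE 0.057). Of 6 complex V assembly and regulation genes, Atpaf1, a chaperone of the beta subunit, was higher (0.26, SE 0.061), and Tmem242 and Atpif1 were lower (-0.18, SE 0.044, and -0.20, SE 0.063). Of the 6 mitochondrially encoded subunits 3 were higher and 1 lower, with mt-Co3 at 779.8, 787.8 and 789.5 CPM in WT and 930.2, 921.9 and 934.8 in KD (log2 fold change 0.24, SE 0.014, adjusted p = 7.06e-07) and mt-Co1 at -0.047 (SE 0.011). Among 13 tested regulators Ppargc1b (0.37, SE 0.091), Gabpb1 (0.22, SE 0.036) and Pprc1 (0.18, SE 0.021) were higher and Hif1a (-0.16, SE 0.020) and Yy1 (-0.11, SE 0.033) lower. Summed T cell marker CPM was also lower in KD, between 3570 and 3800 against 3990 to 4077 in WT, with 4 of 8 markers called lower, and 5 of 29 markers of other cells were lower and none higher.

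The 2 comparisons share no samples and could be set side by side. Of the 39 members higher in Male, 14 were lower in KD, 3 were higher (Atp5g1, Cycs and Cox19) and 22 did not pass. Of the 5 lower in Male, Cox6a2 and Cox6b2 were higher in KD, Cox7a2l was lower, and Cox14 and Atp5s did not pass. Higher in Male and lower in KD were thus 35.9% of the members higher in Male and 93.3% of the members lower in KD. Over the 19529 genes tested in both, 7.33% were called in this way, which were 30.2% of the genes higher in Male and 38.7% of those lower in KD. The remaining pairings took 4.92% (higher in both), 6.82% (lower in Male and higher in KD) and 6.62% (lower in both). With 39 of 50 members higher in Male, a member lower in KD was likely to be one of them, and the sizes did not run in parallel. Across the 50 members the log2 fold changes of the 2 comparisons had a Spearman rho of 0.080 and a Pearson r of -0.44, given as a description over genes of the same libraries. Cox6b2 and Cox6a2 had the lowest values in Male against Female and the highest in KD against WT. Pearson r is sensitive to such points and was not computed without them. Among the members called in opposite directions, Uqcrfs1 (0.31 in Male against Female and -0.31 in KD against WT), Uqcrc2 (0.10 and -0.17), Cox15 (0.13 and -0.19), Cox6b2 (-1.02 and 1.90) and Cox6a2 (-0.86 and 1.30) changed by an equal or larger amount in KD. The rest changed less in KD: Uqcrq had 0.99 in Male against Female and -0.22 in KD against WT, Cox7b 0.86 and -0.13, and Atp5b 0.46 and -0.15.

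**Figure D5:**
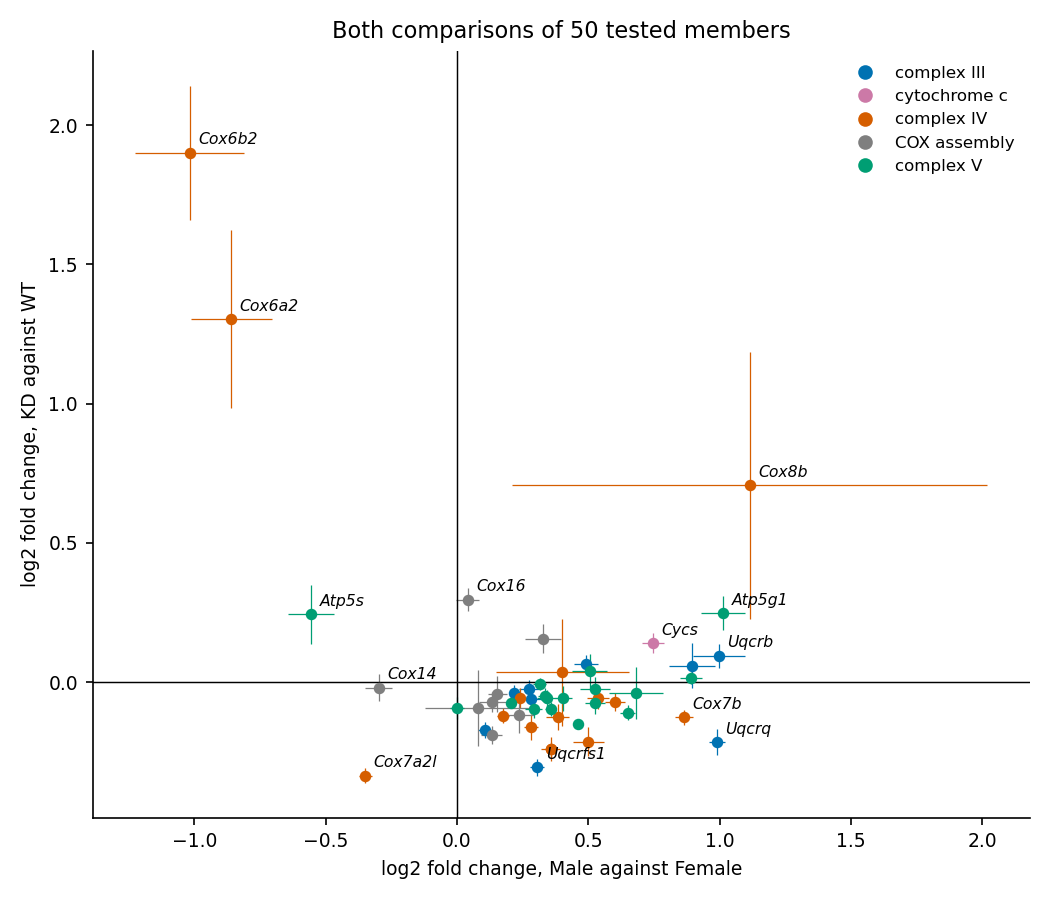
Log2 fold change in Male against Female (horizontal axis) and KD against WT (vertical axis) for the 50 tested members, coloured by class, with standard errors as bars. Most points lie to the right of 0 and near 0 on the vertical axis, while Cox6b2 (-1.02, 1.90) and Cox6a2 (-0.86, 1.30) stand alone at the upper left.

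Levels per length differed widely between subunits that are used in equal numbers in a complex. In complex III of Female the mean TPM ran from 145.8 ± 2.5 (SD, n = 3) for Uqcrc2 and 144.8 ± 7.4 for Uqcr10, which did not differ beyond their spread, through 115.3 ± 4.1 for Uqcrfs1 and 91.9 ± 2.8 for Cyc1 to 20.9 ± 2.1 for Uqcrb. In Male the order began with Uqcr10 at 182.6 ± 8.4 and Uqcrc2 at 162.5 ± 4.8, and Uqcrb was again last at 43.3 ± 4.6. With the longest transcript as the length both ends of the Male order turned, with Uqcrc2 (185.7) above Uqcr10 (177.5) and Uqcr11 (55.2) below Uqcrb (56.96). In complex V of Female, Atp5b (468.6 ± 9.8) and Atp5a1 (466.1 ± 15.9) were first and not separable. In Male Atp5b was at 668.5 ± 6.7 and Atp5a1 at 556.2 ± 4.2. With the longest transcript as the length, Atp5b in Female was at 891.6 TPM and Atp5a1 at 470.2, so this order of levels between genes rests on the length chosen, while differences between groups do not. Summed over the 18 identifiers, complex V had 2478 ± 9.7 CPM in Female, 3192 ± 12.7 in Male, 3290 ± 12.1 in WT and 3099 ± 38.1 in KD (SD, n = 3).

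Over the tested genes matched to GENCODE M21, gene length was related to the sex difference. The Spearman rho between exon length and log2 fold change was -0.22. Among the 50 members there was hardly a relation, with a rho of -0.064. With trends of length and GC removed, the members' median in Male against Female was 0.295, and 39 were called higher and 5 lower; these are not all the same genes, since Uqcrc2 and Cox7c lost their calls and Cox17 and Atp5g2 gained one. Counts are less certain for 17 members that share over 10% of their 31-base subsequences with another gene, among them Atp5h (25.4%), Cox7c (24.6%), Atp5o (18.8%), Cox6a1 (18.5%) and Cox7a2l (16.6%). The span of 17 members overlaps a gene on the other strand. Libraries were made with a stranded kit, but whether counting used the strand was not given in the sources used here, so reads of the 2 strands may have been joined for pairs such as Cox6c and Vps13b (log2 fold change -0.33 in Male against Female, against 0.50 for Cox6c) and Atp5d and Cbarp (-0.54, against 0.32 for Atp5d).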

How the data were processed

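Gene counts of 12 libraries were taken as deposited, in 2 tables of 6 samples; that they are raw whole-number counts was read from the values. The submitters' processing notes name bcl2fastq 2.20.0, HISAT2, StringTie, DESeq2 and mm10 without their roles, and the kit was a stranded total RNA kit with ribosomal depletion, per the labels' protocols. Of 55487 identifiers, 55227 were matched to GENCODE M21. Each table was fitted separately in edgeR 4.0.16 (R 4.3.3) with TMM scaling, filterByExpr, the quasi-likelihood test and Benjamini-Hochberg adjustment over all genes tested; a gene was called at an adjusted p under 0.05, and the standard error is the log2 fold change over the root of the F statistic. The model was tested on simulated data. TPM used the exon-union length, and the 31-base subsequences were counted over M21 transcripts. Levels of the 2 tables, which were separate batches, are printed side by side in places but were not tested against each other.

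The members and gene lists were chosen with earlier results of these data known. Values in every sample are given for up to 4 members with the smallest p in each direction per complex and comparison and for members of the isoform families with counts. From each related list up to 3 genes per direction are named, with exceptions in Male against Female. These are the 4 mitochondrially encoded genes that were higher, Ndufa4 and Gabpa. Alternatives were DESeq2 1.42.0, limma 3.58.1 (voom), other scalings and filters, length and GC trends removed, thinned counts, a replicate block and leaving out each replicate. Standard errors were widest for the scarce isoforms Cox8b, Cox7a1, Cox6b2 and Cox6a2 and for Cox11. That of Cox11 was 0.20 in Male against Female and 0.14 in KD against WT.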

Additional observations from a re-analysis of the deposited data

How the results depend on the processing

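Of 44 members called in Male against Female, 40 passed in every alternative fit, and of 21 called in KD against WT, 16 did; of those not called, 3 of 6 and 9 of 29 passed in at least 1. The members' median log2 fold change in Male against Female was 0.295 with length and GC trends removed, 0.306 with trends removed and the replicate block added, 0.391 over protein-coding genes only, 0.315 with all 12 samples in 1 fit, and 0.307 to 0.34 leaving out 1 sample. In KD against WT it was -0.0276 under upper-quartile scaling and -0.0719 to -0.0459 leaving out 1 sample. Requiring a fold change of at least 0.25 on the log2 scale left 5 members called in KD against WT, 3 higher and 2 lower. Leaving out 1 sample, 43 to 45 members were called in Male against Female (38 to 40 higher, 5 lower) and 17 to 23 in KD against WT (4 to 5 higher, 12 to 18 lower). Same-numbered samples did not deviate together (correlations -0.04 to 0.021), so no pairing by number was seen. A weak pairing could go unseen with 3 samples per group. With the replicate block 45 (40 higher, 5 lower) and 20 members (5 higher, 15 lower) were called. In KD against WT the block ended the calls of Cox6a1 (-0.16) and Cox19 (0.16), and with trends removed as well those of Cox19 (0.16) and Atp5f1 (-0.115).

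Direction changed only for members that did not pass the main test. In Male against Female these were Cox11 (-0.0364 with trends removed, -0.00345 with trends removed and the block, -0.134 to 0.275 leaving out 1 sample), Cox16 (-0.0184 and -0.0191 with the trends removed, without and with the block) and Atp5g2 (-1.67e-04 with DESeq2 size factors, -1.47e-04 in the DESeq2 test, -0.0135 with no filter, -0.00215 with thinned counts, -0.021 with all 12 samples, -0.0196 to 0.0166 leaving out 1). In KD against WT, upper-quartile scaling gave 0.0108 for Cox14, 0.00726 for Cyc1, 0.0227 for Atp5d and 0.00482 for Atp5mpl, and fitting protein-coding genes only gave 0.00137 for Atp5d. Removing the trends, without and with the block, gave -0.0141 and -0.0146 for Uqcr11 and -0.012 and -0.0124 for Cox7a1. Leaving out 1 sample, the ranges were -0.104 to 0.0154 for Cox10, -0.0568 to 0.00273 for Cox14, -0.0321 to 0.114 for Uqcr11, -0.0414 to 0.139 for Cox7a1, -0.0204 to 0.00821 for Atp5d, -0.0108 to 0.0804 for Atp5j2 and -0.119 to 0.0346 for Atp5k. The cause was not tested for any of these.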
